A study of Mus musculus with 48 samples.

Results

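Messenger RNAs that neurons carry into their dendrites were followed through ribosome pulldowns made from astrocytes of the mouse dorsal hippocampus. The set held 9 genes, Camk2a, Shank1, Shank3, Dlg4, Ddn, Map2, Psd, Arc and Ppp1r9b, named as a measure of postsynaptic RNA carried along. They were chosen with earlier results of these data known, so no test was made over the set. Each symbol matched 1 Ensembl ID among the 47643 genes listed. All 9 had enough counts to be among the 14618 genes tested. Every library came from the same transgenic line, Tg(Aldh1l1-eGFP/Rpl10a) JD130Htz, in which ribosomal protein L10a tagged with a green fluorescent protein is made under the Aldh1l1 promoter, so that an antibody to the tag pulls down astrocyte ribosomes with their RNA. The labels name a full astrocyte fraction, called Astro here, and one of perisynaptic astrocytic processes, called PAP, which are the thin branches around synapses. Both come from animals C1, C2 and C3, with 8 technical replicates per animal and compartment. No treatment and no age is given in the labels. Replicates of a library were summed, which left 3 Astro and 3 PAP libraries and n = 3 animals. Pulldowns from mice without the transgene, and the lysate before pulldown, were not analysed here, so the level at which neuronal RNA enters such a pulldown unspecifically was not measured.

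Most neuronal mRNAs are translated in the cell body, but a subset is packed into RNA granules, moved along microtubules into dendrites and translated near the postsynaptic density, the protein mesh under excitatory synapses. The products of the genes studied here sit in that mesh, in the spine's actin or along dendritic microtubules. Perisynaptic astrocyte processes and dendritic spines touch each other, so preparations enriched for the former can hold pieces of the latter.

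Transcript features were read from the principal transcript of each gene in GENCODE M21 on GRCm38. The 9 transcripts were long and rich in G and C. All 9 were longer than the median tested gene (4508 against 3033 bases at the median), 8 of 9 had a higher GC content (59.9% against 50.3%) and 6 of 9 a longer 3′ untranslated region (1541 against 1037 bases). The cDNA kit named in the labels starts from the poly(A) tail, so the ends that carry a poly(A) signal are shown with the signal in capitals, 5′ to 3′ on the transcript strand, for 4 of the genes that hold one in the last 50 bases.
Shank3 (chr15:89560228-89560257, plus strand): ataatattatgtAATAAAtttataagaaat
Ddn (chr15:98803785-98803814, minus strand): tagcaggcgcccAATAAAtctactcgcccc
Arc (chr15:74669084-74669113, minus strand): tatgattttgttAATAAAactatgaaactt
Psd (chr19:46312090-46312119, minus strand): gcctccaccctcATTAAAactgctctgaat

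The signal AATAAA stood in the last 50 bases of 4 of the 8 transcripts searched, Camk2a being the fourth, and in 62.2% of 17158 mouse coding transcripts with a 3′ untranslated region of at least 200 bases. ATTAAA, its common variant, stood there in 1 of the 8 and in 17.9% of all. Map2, whose annotated region is 181 bases long, was not searched. Only the transcript strand was read, and a match of letters describes the sequence without showing that anything binds there.

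Libraries were deep in Astro, at 18707844 to 20293538 counts, and shallow in PAP, at 1829962 to 2980984. The floor of 3 counts was therefore 0.152 to 0.176 CPM (counts scaled to library size with trimmed-mean factors) in Astro and 0.991 to 1.55 in PAP. Spread between the libraries of a compartment was larger in PAP, where the biological coefficient of variation was 1.61, than in Astro, where it was 0.335. Astrocyte identity was checked on 20 markers, all of which were tested. Their summed level was 40089 to 58191 CPM in Astro and 6961 to 27645 CPM in PAP. As lower in PAP, 5 of the 20 passed the test, beside 15.4% of all tested genes, or 0 with the animal as a block. None had a positive log2 fold change, and the median was -1.55, or -1.75 with the block. For 17 of the 20, every PAP library lay below every Astro library, beside 35.1% of all tested genes. Since CPM are shares of a library, less astrocyte RNA and more RNA of other kinds cannot be told apart.

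The comparison of PAP with Astro asks which ribosome-bound RNAs differ in abundance between the processes and the whole cell. Here it asks how much RNA of the 9 genes each holds. None of the 9 dendritic mRNAs passed the edgeR quasi-likelihood test when p was adjusted over the whole table and held to 0.05, where 21.3% of tested genes passed, 5.92% as higher and 15.4% as lower in PAP. Their point estimates nonetheless lay mostly on the PAP side, with 7 of 9 positive log2 fold changes and a median of 1.61. Over all tested genes 39.1% were positive, with a median of -0.53. Among the further lists described below, the positive share was 77.8% for oligodendrocyte markers (7 of 9), 63.6% for other dendritic mRNAs and 60.7% for postsynaptic density genes. It was 41.7% for paralogs, 40% for neuronal soma and presynaptic markers, 28.6% for microglial markers and for immediate early genes, and 0% for astrocyte markers. At an unadjusted p under 0.05 the test named 3 of 9, Camk2a, Shank1 and Ddn, against 30.9% of all tested genes. The DESeq2 Wald test, an alternative with its own spread estimate, called those genes and Shank3 higher, 4 of 9 beside 11.8% of genes called higher by it, while limma voom with weights per group called 0 of 9 beside 24.1% of all genes. The voom median was 0.32 for the 9 genes and -1.62 for all tested genes. With the animal as a replicate block, edgeR called 0 of 9 beside 0.91% of all genes, and the split over the whole table turned from 865 higher and 2250 lower to 128 higher and 5 lower.

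**Figure D1:**
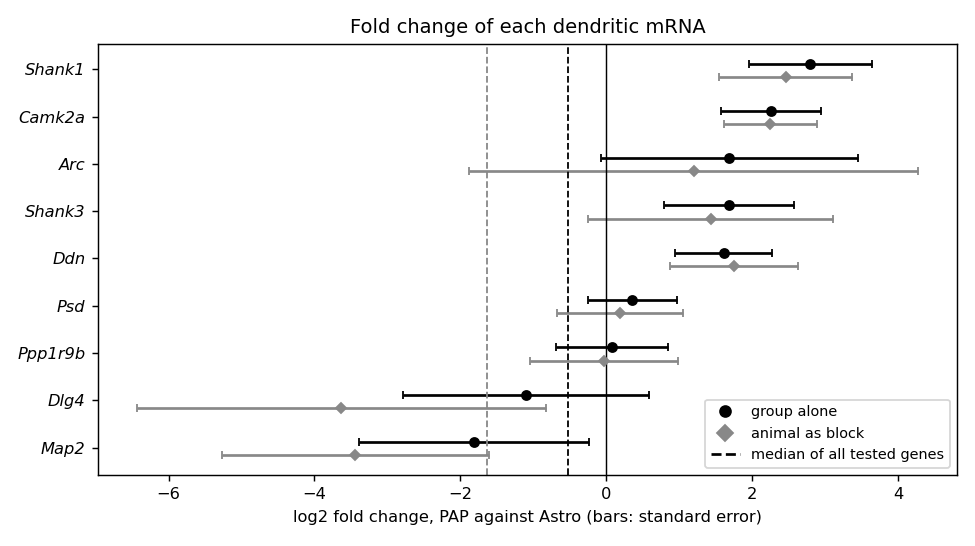
Log2 fold change of each dendritic mRNA, PAP against Astro, from edgeR with group alone (black circles) and with the animal as a block (grey diamonds); bars are standard errors and dashed lines the medians of all tested genes in each fit. With group alone, Shank1, at 2.80, and Camk2a, at 2.26, lie farthest to the right and Map2, at -1.81, farthest to the left, while with the block Dlg4, at -3.63, is the lowest.

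Overlap of the groups was counted apart from any model. PAP stood above Astro in every library for Camk2a, Shank1 and Ddn (3 of 9, beside 10.9% of all tested genes) and below Astro in every library for Map2 (1 of 9, beside 35.1%). The other 5 genes, Shank3 among them, overlapped between the compartments.

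**Figure D2:**
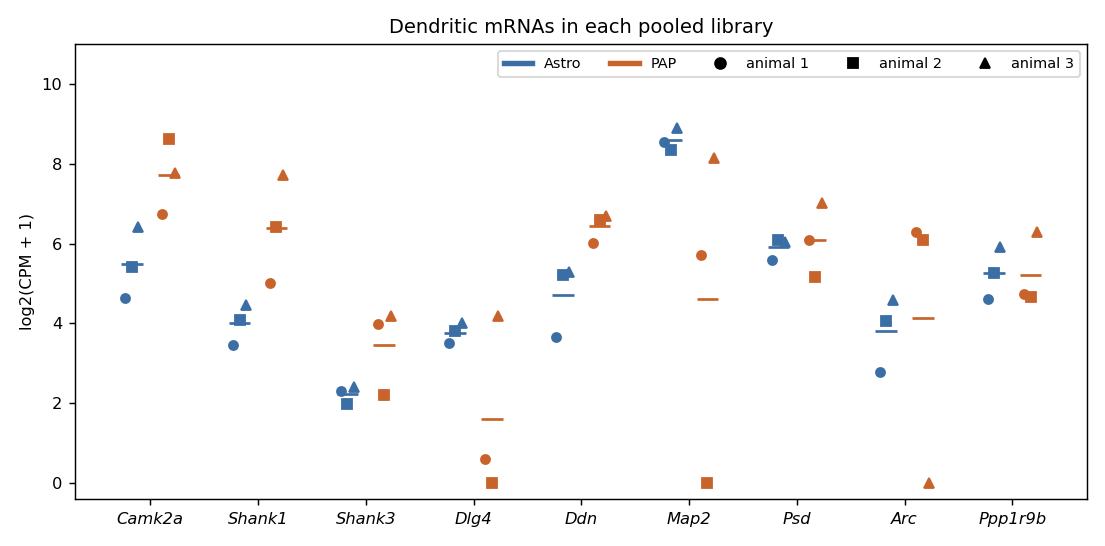
Level of each dendritic mRNA in the 6 pooled libraries on a log2(CPM + 1) scale; blue is Astro, orange PAP, marker shape the animal and the bar the mean of 3. Camk2a, Shank1 and Ddn show separate groups with PAP above, and Dlg4, Map2 and Arc each reach 0 in at least 1 PAP library.

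Camk2a (ENSMUSG00000024617, chromosome 18, 60925618 to 60988152, plus strand) encodes the alpha subunit of calcium/calmodulin-dependent kinase II, the main kinase of the postsynaptic density, and its mRNA is a textbook case of dendritic transport. It stood at 24.0, 41.2 and 84.2 CPM in Astro animals 1 to 3 and at 105, 392 and 218 CPM in PAP. All 3 PAP libraries were above all 3 Astro libraries, by 1.38 to 3.25 on the log2 scale within an animal. Its log2 fold change was 2.26 ± 0.69 (SE, n = 3 per group), and edgeR gave an adjusted p of 0.0663.

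The Shank genes encode the large scaffolds that tie receptors, via Dlgap and Homer proteins, to the spine's actin. Shank1 (ENSMUSG00000038738, chromosome 7, 44310253 to 44360572, plus strand) stood at 10.0, 15.9 and 20.9 CPM in Astro and at 31.1, 84.5 and 210 CPM in PAP. In the fit with group alone its log2 fold change was 2.80 ± 0.84 (SE, n = 3 per group), with an edgeR adjusted p of 0.0627. Its PAP libraries differed from each other by 6.75-fold, its Astro libraries by 2.08-fold. Leaving out PAP animal 1, the lowest PAP library for both Camk2a and Shank1, took Camk2a to an edgeR adjusted p of 0.0418 and Shank1 to 0.0251, so that both passed without it. Neither passed when another library was left out: Camk2a had a log2 fold change of 1.64 and an edgeR adjusted p of 0.135 without PAP animal 2, and Shank1 had 1.82 and 0.104 without PAP animal 3, its highest. Without 1 Astro library the edgeR adjusted p was 0.0927 to 0.244 for Camk2a and 0.177 to 0.251 for Shank1. Shank3 (ENSMUSG00000022623, chromosome 15, 89499623 to 89560261, plus strand) was scarce, at 3.92, 2.93 and 4.26 CPM in Astro and 14.8, 3.61 and 17.2 CPM in PAP. Animals 1 and 3 stood well above Astro in PAP, while PAP animal 2, with 7 counts, lay inside the Astro range. The log2 fold change of Shank3 was 1.68 ± 0.89 (SE, n = 3 per group), with an edgeR adjusted p of 0.279. Shank1 and Shank3 did not share their PAP order, since animal 2 was the lowest for Shank3 and in the middle for Shank1.

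Dlg4 (ENSMUSG00000020886, chromosome 11, 70016942 to 70047522, plus strand) encodes PSD-95, the most used marker protein of the postsynaptic density. It was even across Astro, at 10.4, 13.0 and 15.0 CPM, and uneven in PAP, at 0.51, 0 and 17.2 CPM, which were 1, 0 and 52 counts. PAP animal 3 thus lay above every Astro library and the other two PAP libraries below all of them. In animal 2, where PAP held 0 counts, Dlg4 was at least 8.39-fold lower than in Astro against the floor of 3 counts per library. The log2 fold change was -1.10 ± 1.69 (SE, n = 3 per group), with an edgeR adjusted p of 0.747. Without PAP animal 3, Dlg4 passed as lower, with an edgeR adjusted p of 0.0246. The log2 fold change was then -5.65, a value that depends on the prior count since the remaining PAP libraries held 1 and 0 counts. It was -0.60 without PAP animal 1 and -0.57 without PAP animal 2, and -3.63 with the block.

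Ddn (ENSMUSG00000059213, chromosome 15, 98803777 to 98809490, minus strand) encodes dendrin, a protein of dendrites and spines also known from kidney podocytes. Its libraries read 11.6, 36.0 and 38.3 CPM in Astro and 63.3, 95.4 and 103 CPM in PAP, so that the groups were separate. Ddn was the steadiest of the 9 in PAP, with a coefficient of variation of 0.242. The log2 fold change was 1.61 ± 0.66 (SE, n = 3 per group) with an adjusted p of 0.156 in edgeR. An antisense gene, B130046B21Rik, overlaps 177 exonic bases of Ddn and held 848 to 1385 counts in Astro and 55 to 148 in PAP. Whether counting used strand is not given in the sources used here, so reads of the shared bases cannot be assigned, and its part in the Ddn values was not tested. The same holds for 4 others of the 9, whose exons overlap a gene on the opposite strand. Psd shares 299 bases with Nfkb2, which had 77, 48 and 3 counts in PAP animals 1 to 3 where Psd had 131, 68 and 387. Shank3 shares 271 bases with Gm15609, which had 33 counts in PAP animal 3 where Shank3 had 52, and 0 in the other PAP libraries. The partners of Shank1 and Map2, 1700008O03Rik and Gm10558, had 57 and 91 counts over all 6 libraries.

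Map2 (ENSMUSG00000015222, chromosome 1, 66175273 to 66442583, plus strand) encodes the microtubule-associated protein that marks dendrites. It was the most counted of the 9 in Astro, at 371, 322 and 477 CPM, and stood at 51.5, 0 and 282 CPM in PAP. Every PAP library was below every Astro library, by at least 208-fold in animal 2, where PAP held 0 counts, and by 0.76 on the log2 scale in animal 3, the closest pair. The log2 fold change was -1.81 ± 1.58 (SE, n = 3 per group), for which edgeR gave an adjusted p of 0.538, so the gene did not pass although the groups were separate. The size of the estimate varied with the library and the fit, at -3.98 without PAP animal 3, -3.44 with the block and -4.71 in voom, and Map2 passed in none of these.

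Arc (ENSMUSG00000022602, chromosome 15, 74669083 to 74672570, minus strand) is an immediate early gene whose mRNA travels to recently active synapses, where its product promotes removal of glutamate receptors. It stood at 5.86, 15.8 and 22.8 CPM in Astro and at 77.1, 66.5 and 0 CPM in PAP. PAP animals 1 and 2 were above all Astro libraries, and PAP animal 3 had 0 counts, at least 23.0-fold lower than Astro of the same animal. The log2 fold change was 1.69 ± 1.76 (SE, n = 3 per group), with an edgeR adjusted p of 0.615, and it turned to -0.18 in voom. Arc was the only one of the 9 at 0 in PAP animal 3, the library in which 7 of the other 8 had their highest PAP level.

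Psd and Ppp1r9b had the fold changes nearest 0 in the fit with group alone, and the sign of both turned without PAP animal 3, to -0.30 and -0.74. Psd (ENSMUSG00000037126, chromosome 19, 46312087 to 46327156, minus strand) encodes an exchange factor for the small GTPase Arf6, which acts on spine membrane traffic. It stood at 47.4, 67.5 and 64.4 CPM in Astro and at 66.8, 35.0 and 128 CPM in PAP, with a log2 fold change of 0.36 ± 0.61 (SE, n = 3 per group) and an edgeR adjusted p of 0.776. Ppp1r9b (ENSMUSG00000038976, chromosome 11, 94991035 to 95006899, plus strand) encodes spinophilin, which brings protein phosphatase 1 to spine actin. Its levels were 23.4, 37.2 and 58.8 CPM in Astro and 25.5, 24.2 and 76.7 CPM in PAP, with a log2 fold change of 0.08 ± 0.77 (SE, n = 3 per group) and an edgeR adjusted p of 0.963. For both genes the compartments overlapped, and with these standard errors the data do not show equal levels either.

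Per kilobase of transcript, Map2 led in Astro at 62.3 ± 12.7 CPM per kb (SD, n = 3), and its range was separate from that of Psd, the next, at 15.3 ± 2.78. From Psd down through Camk2a, Ppp1r9b, Ddn, Arc and Dlg4, each neighbour's range overlapped the next. Shank1, at 1.59 ± 0.55 CPM per kb (SD, n = 3), and Shank3, at 0.52 ± 0.097, were separate from their neighbours at the bottom. Camk2a led in PAP at 48.0 ± 29.1 CPM per kb (SD, n = 3), followed by Ddn at 23.3 ± 5.64, Psd at 19.6 ± 12.1, Map2 at 17.8 ± 24.0 and Arc at 15.7 ± 13.7. Neighbours in the PAP order overlapped throughout except Ppp1r9b, at 9.35 ± 6.64, over Dlg4, at 1.69 ± 2.80. Among tested genes with a coding transcript, the per-kb level of Camk2a was at percentile 54.4 in Astro and 86.3 in PAP, and that of Map2 at 87.0 and 69.0.

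The zeros in PAP were not a matter of single technical replicates. Arc in animal 3, Map2 in animal 2 and Dlg4 in animal 2 had no count in any of the 8 technical replicates, whereas Map2 in animal 3 had 86 to 128 counts in each and Arc in animal 1 had 9 to 27. Shank1 likewise had 55 to 95 counts per technical replicate in PAP animal 3 and 4 to 11 in animal 1. These differences were thus seen between libraries and not among the technical replicates of one. With 1 PAP library per animal, animal and library preparation cannot be told apart. Of the 9, 2 (22.2%) ranged in PAP from at most 3 counts in 1 animal to at least 100 in another, beside 16.4% of all tested genes. A count of 0 in a PAP library was found for 3 of 9 (33.3%), beside 51.5% of all tested genes.

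**Figure D3:**
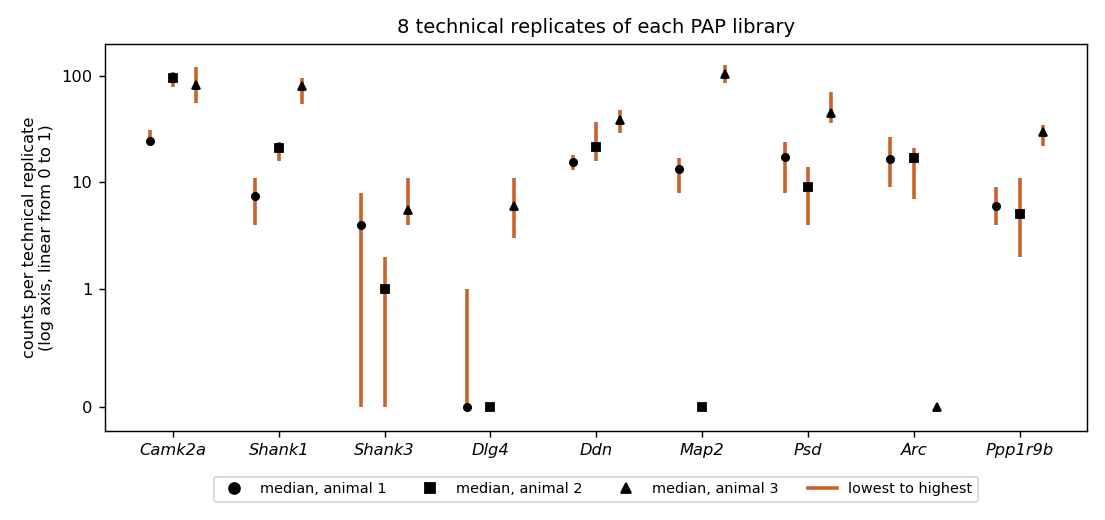
Counts of each dendritic mRNA per technical replicate in PAP, with the median (marker, by animal) and the range over 8 replicates (orange line) on a log axis that is linear between 0 and 1. Map2 ranges from 86 to 128 in animal 3 and is at 0 throughout in animal 2, and Arc is at 0 throughout in animal 3.

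RNA from dendrites and RNA of the same genes from other sources are counted alike. Together, the 9 genes made up 0.0587% ± 0.018 of each Astro library and 0.0759% ± 0.0301 of each PAP library (SD, n = 3). The difference of 0.0172 percentage points is smaller than either SD. Leaving out 1 library moved it to 0.00173 without PAP animal 3, 0.0318 without PAP animal 1, 0.0111 without Astro animal 1 and 0.0275 without Astro animal 3. The summed levels were 508, 552 and 786 CPM in Astro animals 1 to 3 and 436, 702 and 1053 CPM in PAP, so the compartments overlapped. Map2, with the most counts, pulled against the rest: without it the difference in share was 0.043 percentage points. Within animals, the median over the 9 genes of the log2 ratio of PAP to Astro, on CPM + 1, was 1.54, 0.23 and 0.98 for animals 1 to 3.

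The 9 mRNAs also varied between the Astro libraries. Animal 3 had the highest Astro level for 8 of the 9 genes, all but Psd, beside 34.4% of all tested genes, and the gap between the highest and lowest library reached 3.5-fold for Camk2a and 3.89-fold for Arc. Postsynaptic density genes outside the 9 did so in 23 of 28 (82.1%) and neuronal soma and presynaptic markers in 13 of 20 (65%), while other dendritic mRNAs did so in 3 of 11 (27.3%), a share below that of all tested genes, and astrocyte markers in 2 of 20 (10%). The summed level of the neuronal markers in Astro was 893, 1311 and 1633 CPM, and that of the astrocyte markers 58191, 56278 and 40089 CPM, in animals 1 to 3. The neuronal sum thus had the same order over Astro animals as the sum of the 9 mRNAs and the astrocyte sum the opposite order, and their part in the fold changes was not tested. In PAP, animal 3 had the highest level for 7 of the 9 genes and for 18 of 20 astrocyte markers, beside 4561 of all 14618 tested genes. It had the highest level for 5 of 20 neuronal markers, 12 of 28 postsynaptic density genes and 3 of 11 other dendritic mRNAs.

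**Figure D4:**
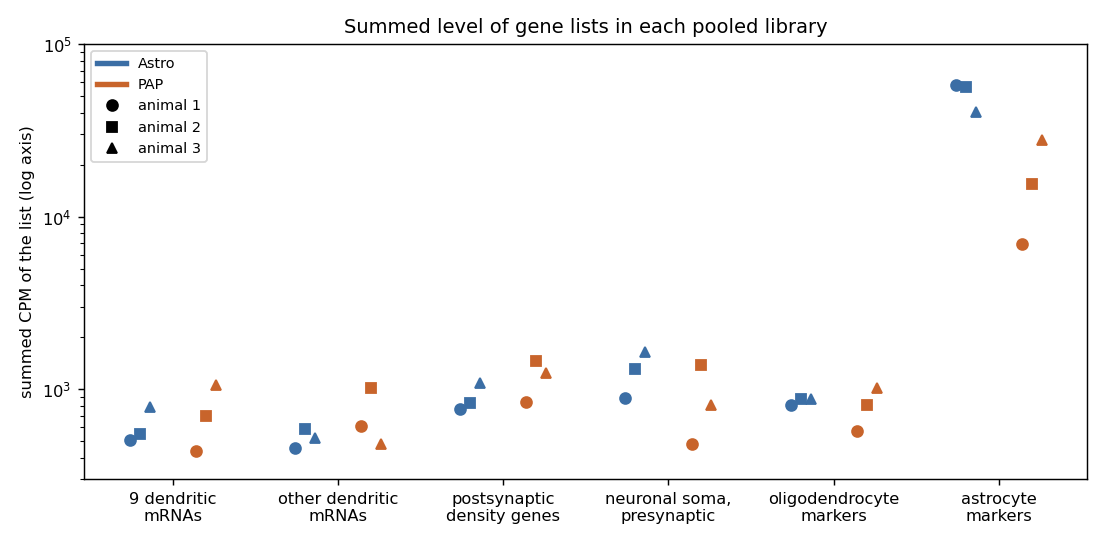
Summed CPM of gene lists in each pooled library on a log axis; blue is Astro, orange PAP and marker shape the animal. The 9 dendritic mRNAs run from 436 to 1053 CPM with overlapping compartments, while astrocyte markers run from 40089 to 58191 CPM in Astro and from 6961 to 27645 CPM in PAP.

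Further mRNAs reported from dendrites were taken from a list of 11. All 11 were tested, with 0 higher and 1 lower in PAP and a median log2 fold change of 1.07. This list's median turned to -0.21 in the blocked fit, where that of all tested genes was -1.63 and that of the 9 mRNAs 1.20. Nrgn, which encodes the calmodulin-binding protein neurogranin, fell from 178 ± 54.7 to 47.6 ± 25.3 CPM (SD, n = 3), by 1.91 on the log2 scale (edgeR adjusted p 0.0495, but 0.206 under the block). It thus lay on the opposite side from Camk2a, another mRNA known from dendrites of forebrain neurons. Gria2, an AMPA receptor subunit, stood at 73.4 to 101 CPM in Astro and at 33.0 to 358 CPM in PAP and did not pass (adjusted p 0.317). Itpr1, a calcium release channel, stood at 8.06 to 21.8 CPM in Astro and 32.4 to 366 CPM in PAP and did not pass either (0.0964). Camk2n1, an inhibitor of the kinase that Camk2a encodes, had a log2 fold change of -0.88 (adjusted p 0.361).

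Of 29 further genes of the postsynaptic density, 28 were tested, with 2 higher, 1 lower and a median log2 fold change of 0.41, which turned to -0.36 with the block. Homer2, a scaffold that binds Shank proteins, rose from 31.7 ± 2.64 to 138 ± 23.6 CPM (SD, n = 3), which edgeR estimated as 2.12 ± 0.43 (SE) on the log2 scale, adjusted p 0.0208. Grin2a, an NMDA receptor subunit, rose from 17.3 ± 3.40 to 101 ± 30.8 CPM (SD, n = 3), by 2.55 ± 0.55 (SE) on the log2 scale with an edgeR adjusted p of 0.0223. Cacng8, an auxiliary subunit of AMPA receptors, passed as lower (edgeR adjusted p 0.0294), with 30 to 78 counts in Astro and 0, 0 and 1 in PAP. At 1.52 to 4.58 CPM in Astro, Cacng8 lay near the PAP floor of 0.991 to 1.55 CPM, so depth limits what its low PAP counts show. With the block the adjusted p was 0.206 for Homer2 and Grin2a and 0.23 for Cacng8, so none of them passed. Dlgap1, which links PSD-95 to Shank proteins, stood at 162 to 241 CPM in Astro and 51.9 to 267 CPM in PAP (adjusted p 0.702). Homer2 and Grin2a passed where Shank1 and Camk2a, with fold changes of like size, did not, and the PAP libraries of Homer2 ran from 112 to 158 CPM against 31.1 to 210 CPM for Shank1.

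Paralogs of the 9 genes, of which 12 of 13 were tested, gave 0 higher and 1 lower with a median of -0.33, or -1.14 with the block; 5 of the 13 are also in the postsynaptic density list. Map4, the relative of Map2 found in many cell types, fell from 417 ± 3.78 to 158 ± 61.8 CPM (SD, n = 3), by 1.40 on the log2 scale (edgeR adjusted p 0.0403, but 0.206 under the block). Psd2 stood far above Psd in Astro, at 504 to 587 CPM, and at 0, 117 and 323 CPM in PAP animals 1 to 3 (adjusted p 0.507). Camk2b, the beta subunit of the kinase, stood at 95.8 to 200 CPM in Astro and 1.53 to 83.5 CPM in PAP, the opposite side from Camk2a, and did not pass (adjusted p 0.454). Dlg1, a relative of Dlg4, ran from 2.97 to 376 CPM in PAP (adjusted p 0.441).

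Markers of neuronal cell bodies and presynaptic terminals, whose mRNAs mostly stay in the soma, gave 1 higher and 2 lower of 20 tested, with a median log2 fold change of -0.55, or -1.60 with the block. Snap25, a presynaptic fusion protein, fell from 532 ± 133 to 114 ± 62.8 CPM (SD, n = 3), by 2.22 on the log2 scale (edgeR adjusted p 0.0296, but 0.127 under the block). Vsnl1, a neuronal calcium sensor, passed as lower, with 651 to 1291 counts in Astro and 3, 2 and 0 in PAP (edgeR adjusted p 0.0266, but 0.206 under the block). In CPM, Vsnl1 stood at 35.0 to 65.5 in Astro and 0 to 1.53 in PAP. Syt1, the calcium sensor of synaptic vesicles, rose from 88.7 ± 22.8 to 234 ± 51.9 CPM (SD, n = 3; log2 fold change 1.40, edgeR adjusted p 0.0414, but 0.206 under the block). Slc17a7, the vesicular glutamate transporter of excitatory neurons, stood at 52.2 to 82.3 CPM in Astro and 48.9 to 176 CPM in PAP (adjusted p 0.516). In at least 1 PAP library, 13 of the 20 markers had 0 counts. No test of the difference between this list and the 9 dendritic mRNAs was made, so their medians of -0.55 and 1.61 stand side by side as a description.

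Other cell types were checked in the same way. Oligodendrocyte markers, several of which also have mRNAs that travel into processes, gave 0 of 9 called and a summed level of 809 to 881 CPM in Astro and 575 to 1015 CPM in PAP. Of these markers 7 of 9 had a positive log2 fold change, the same share as the 9 dendritic mRNAs. Their median was 0.74, or -2.29 with the block. Microglial markers summed to 42.7 to 89.9 CPM in Astro and 30.4 to 60.7 CPM in PAP, with 3 of 7 tested genes lower, or 0 with the block. Endothelial markers summed to 5.00 to 13.1 CPM in Astro and 14.9 to 24.5 CPM in PAP, and 2 of 7 were tested. Most of the PAP sums came from Ly6c1, at 23.0, 3.09 and 12.9 CPM in animals 1 to 3, and Tek, at 0, 11.3 and 0.33 CPM. Cldn5, Cdh5 and Slco1a4 had 0 counts in every PAP library. The part of these cell types in the dendritic values was not tested.

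Arc shares its rapid response to activity with other immediate early genes, of which 7 of 10 were tested, with 0 higher and 3 lower in PAP. Egr3, Nr4a1 and Dusp1 passed as lower (edgeR adjusted p 0.0208, 0.0208 and 0.0309, each 0.206 with the block). Each had at most 5 counts in any PAP library, against 38 to 57, 89 to 156 and 549 to 1094 counts in the deeper Astro libraries. In CPM, their Astro levels were 1.93 to 3.06, 4.78 to 9.15 and 29.55 to 58.8. Egr3 thus lay near the PAP floor of 0.991 to 1.55 CPM, so depth limits what its 0 counts in PAP show. Egr1 was at 0, 135 and 1 counts in PAP animals 1 to 3 and Arc at 151, 129 and 0. Arc and Egr1 were thus alike in animals 2 and 3 and differed in animal 1. Other members of the list, named here after their values were seen, had yet other orders, with 0, 30 and 129 counts for Fos, 32, 4 and 2 for Junb and 52, 0 and 0 for Ier2.

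**Figure D5:**
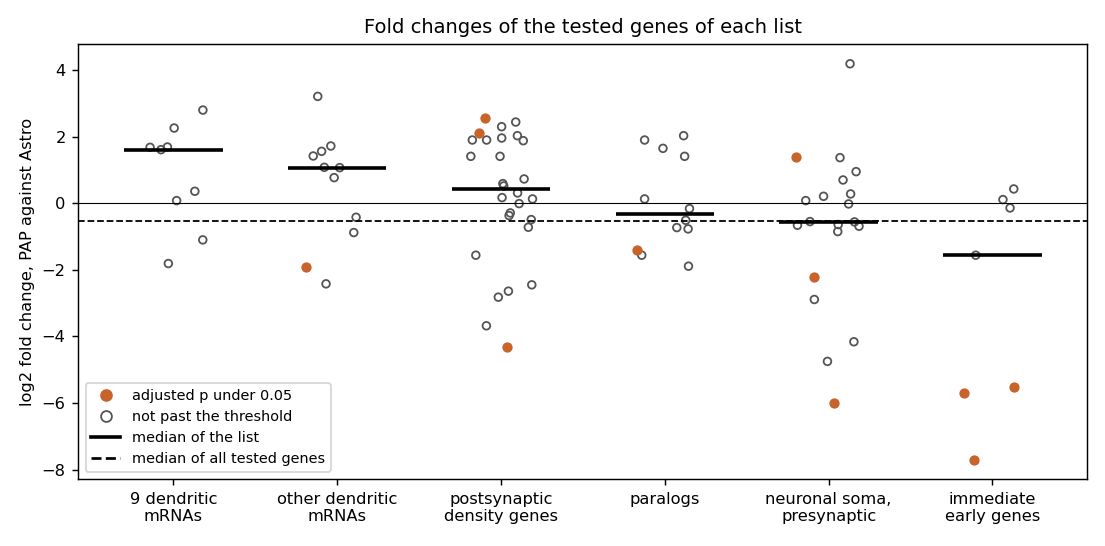
Log2 fold change, PAP against Astro, of the tested genes of each list, with genes at an adjusted p under 0.05 filled, the list median as a bar and the median of all tested genes (-0.53) as a dashed line. The medians are 1.61 for the 9 dendritic mRNAs, 1.07 for other dendritic mRNAs, 0.41 for postsynaptic density genes, -0.33 for paralogs, -0.55 for soma and presynaptic markers and -1.56 for immediate early genes. In the fit with the animal as a block, which is not drawn, they are 1.20, -0.21, -0.36, -1.14, -1.60 and -5.11 in the same order.

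The genes whose pattern was most like the mean of the 9, by Pearson's r of log2(CPM + 1) over the 6 libraries among 7571 genes with a mean of at least 10 CPM in each compartment, were Arfgef2 (0.946), Sart3 (0.941), Eif5b (0.923), Rab11fip2 (0.922) and Irf2bp2 (0.918). All 5 had their highest level in PAP animal 3 and their lowest in PAP animal 2 or Astro animal 1. With 6 libraries and 7571 candidates, such values describe likeness in these libraries only.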

How the data were processed

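Counts of reads per gene in 48 samples were analysed as deposited by the authors, whole numbers with no scaling per the file headers and values. Per the submitters' processing notes, bcl2fastq 2.18.0.12, Trim Galore 0.4.1, STAR 2.5.2b, SAMtools and HTSeq 0.5.3 were used with build mm10; the strand setting and annotation are not given in the sources used here. Per the labels' protocols, cDNA came from a SMART-Seq kit for low input, and molecular identifiers are not mentioned, so floors cover counting error only.

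Counts were summed over the 8 technical replicates of a library. edgeR 4.0.16 (R 4.3.3) tested 14618 genes passing filterByExpr at a minimum count of 10, with TMM factors, group alone, Benjamini-Hochberg adjustment over all tested genes and a threshold of 0.05; the SE is the fold change divided by the root of the F statistic. Alternatives used DESeq2 1.42.0 and limma 3.58.1. Both compartments were taken from the same numbered animals per the labels, which pairs them; deviations of same-numbered libraries correlated at 0.033, 0.019 and -0.025. Symbols came from GENCODE M21 (99.12% of IDs found). Genes and lists were chosen with earlier results of these data known. Named from each further list were up to 4 genes past the threshold with the largest fold change, filled up with those of the highest mean CPM.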

Additional observations from a re-analysis of the deposited data

How the results depend on the processing

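No dendritic mRNA changed its side of the threshold with the replicate block, which gave 0 of 9 called and a median log2 fold change of 1.20, and 133 genes called over the whole table. The block with GC and length correction gave 121 genes. The DESeq2 Wald test called 5141 genes and 4 of the 9. Thinning to 1829962 total counts per library called 1693 genes, a mean of at least 100 counts 1414, and an adjusted p under 0.01 163 (152 higher, 11 lower). Voom put the median of the 9 at 0.32, where all tested genes had -1.62 instead of -0.53. Leaving out 1 library gave 115 to 4586 genes, with 115, 128 and 140 without Astro animals 1, 2 and 3 (114, 123 and 135 of them higher), and 0 to 2 of the 9 called; the median of the 9 stayed between 1.13 and 1.81. The cause was not tested.

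Camk2a, Shank1, Shank3 and Ddn stayed positive, and Dlg4 and Map2 negative, in every alternative run; Shank3 could not be tested after thinning or at a mean of at least 100 counts. Ppp1r9b changed sign with the block (-0.034), without a filter (-0.079) and without Astro animal 1 (-0.191) or PAP animal 3 (-0.744). Leaving out 1 library put Psd between -0.296 and 0.645, and Ppp1r9b between -0.744 and 0.498. Psd turned negative without PAP animal 3 (-0.296) and Arc in voom (-0.182). Library size alone shifted all tested genes, to a median of -0.37 instead of -0.53, and the 9 to 1.74 instead of 1.61. In PAP, 3 counts correspond to 0.991 to 1.55 CPM, which limits what can be said of lower levels.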
